A study of Mus musculus with 135 samples.

Results

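A set of 8 genes that serve the red cell was described, namely Rhag, Blvrb, Alas2, Aqp1, Ank1, Epor, Car1 and Car2, and 7 of the 8 had a row in a table of 15181 genes. Car1 was not analysed here. The level of each was followed across single haematopoietic stem cells (HSCs) of a young and an old mouse. The cells were sorted from bone marrow as LSK CD150+CD48-, that is, negative for lineage markers, positive for Sca-1, c-Kit and CD150 and negative for CD48. Each was captured in a well of a Fluidigm C1 chip and sequenced on its own. The young mouse was 2 to 3 months old and gave 61 cells, the old mouse was 20 to 25 months old and gave 74. Both were Vwf-EGFP transgenic mice on a C57BL/6 background, which carry a green fluorescent reporter driven by Vwf, a platelet gene. The 52 young and 62 old cells that met the limits of the study on mapped reads, mitochondrial reads and detected genes were used, 114 in all.

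Each age was 1 mouse on its own capture run. Age, mouse, run and sex-linked expression therefore cannot be told apart, cells are not replicates of an age, and no test between the ages was made. Xist transcripts were called in 50 young and 8 old cells, and transcripts of any of 4 Y-linked genes in 2 young and 58 old cells. A level is log2(CPM + 1) in a cell, where CPM is reads per 1000000 reads counted on genes, and a cell was called expressing above a level of 2. The cells held 273236 to 5688706 counted reads in the young mouse (median 2798990) and 276316 to 4086659 in the old mouse (median 2116020). Among the genes of the sort markers, Kit, a stem cell receptor, was expressed in 49 young and 61 old cells. Cd48 was expressed in 1 and 0. Ly6a, which encodes Sca-1, was expressed in 28 and 43 cells, and Slamf1, which encodes CD150, in only 9 and 15. The transcripts thus followed the sort only in part. Of the other genes listed for stem cells, all outside the sort, Hlf was expressed in 49 and 55 cells and Mecom in 43 and 40. Cd34 was expressed in 28 and 23, and Procr in only 11 and 24. Cells are named by age and chip well, and a well name shared by both ages is not the same cell.

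Red cell precursors fill themselves with haemoglobin and build a membrane that moves gas, water and ions. The hormone erythropoietin, acting through its receptor Epor, keeps the precursors alive, and the transcription factors Gata1 and Klf1 switch on haem, globin and membrane genes. Single stem cells can hold transcripts of lineage genes before they commit, which is commonly called lineage priming. Among the listed genes, Car2 and Car1 encode carbonic anhydrases, which interconvert carbon dioxide and bicarbonate. Rhag encodes the Rh-associated glycoprotein and Aqp1 the water channel of the red cell membrane, while Ank1 encodes ankyrin, which ties that membrane to its skeleton. Alas2 encodes the erythroid enzyme of the opening step of haem synthesis, and Blvrb a flavin and biliverdin reductase abundant in red cells.

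The motif GATAA, which GATA factors bind, was searched on both strands of windows of 300 bases that span start sites from RefSeq (GRCm38.p6), most of each window lying before the start. Of all 32851 such windows, 25.4% held it. It stood in the windows of Rhag, Alas2 and Epor, in each at a single place, and in neither the Aqp1 window nor the pair of Blvrb windows. No window for Car2 or Ank1 was matched. The 3 sites are shown to give the sequence around each match. Each is 30 bases in the direction of the gene, with the motif in capitals, and each motif lies on the opposite strand so that it reads TTATC.
Rhag: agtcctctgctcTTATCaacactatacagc
Alas2: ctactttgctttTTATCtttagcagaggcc
Epor: ggtggctgtagcTTATCtgtccccagcctg
The Rhag stretch is chr17:40811106-40811135 on the plus strand, with the motif beginning 31 bases before the start site of its window. That start site lies inside the outer limits of the gene given below, and so does the motif. The Alas2 stretch is chrX:150547319-150547348 on the plus strand, 86 bases before the start, and the Epor stretch is chr9:21963613-21963642 on the minus strand, 54 bases before it. The motif CCNCNCCC, bound by KLF factors, was found in 49.5% of all windows. It had 4 matches in the Alas2 window, 4 in that of Epor, 3 in that of Aqp1, 6 and 0 in those of Blvrb and 0 in that of Rhag. A match is a description of the letters, and no binding was measured.

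Car2 stood apart from the other genes. It was expressed in every one of the 114 cells, 1 of 433 genes of which this was true. The next in order, Blvrb and Rhag, were each expressed in under 50% of the cells of either age, and the remaining 4 genes in at most 5 cells of an age. Per kilobase of exon, which allows genes to be compared, the mean of log2(CPM per kb + 1) in the young cells was 10.24 for Car2, 2.56 for Blvrb, 1.22 for Rhag, 0.39 for Epor, 0.24 for Aqp1, 0.01 for Alas2 and 0.0055 for Ank1. In the old cells the same quantity was 9.98 for Car2, 3.32 for Blvrb, 0.64 for Rhag, 0.23 for Aqp1, 0.16 for Alas2, 0.06 for Epor and 0 for Ank1. The gap between Car2 and Blvrb, 7.68 in young and 6.66 in old cells, was 2.42 and 2.00 times the larger SD over cells of the pair, and no other neighbours in either order were separated by as much as 1 such SD.

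**Figure D1:**
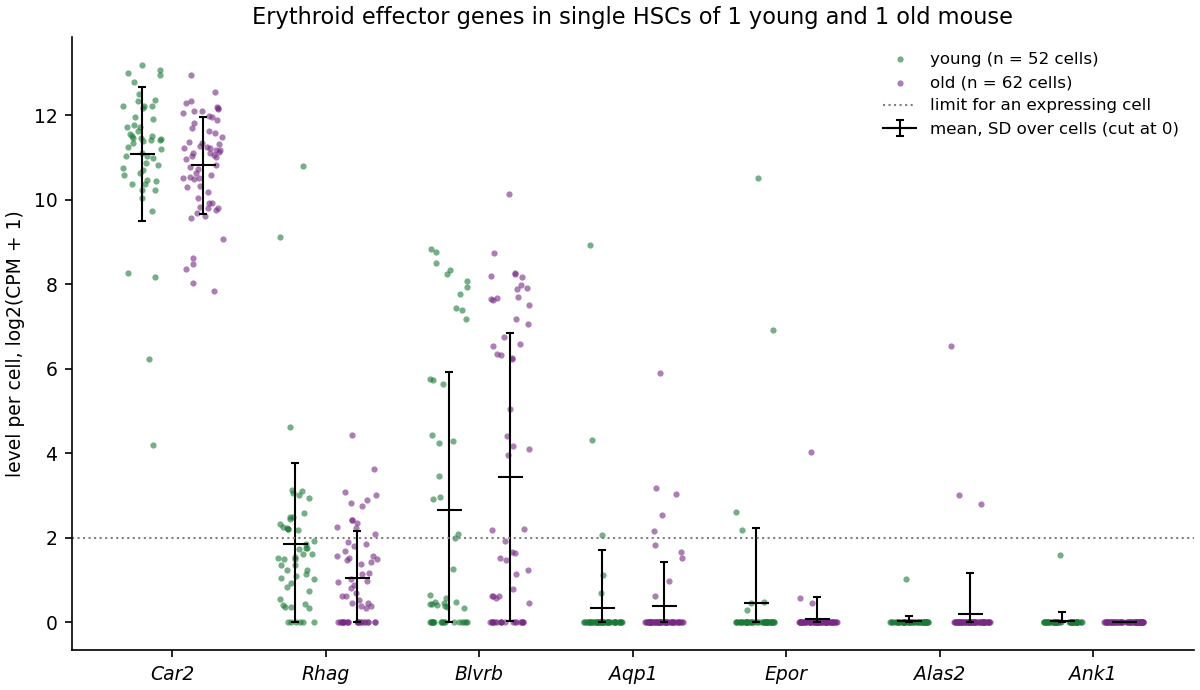
Level of each gene in each cell, log2(CPM + 1), for 52 young (green) and 62 old (purple) cells. Points are cells, bars are the mean and the SD over cells cut at 0, and the dotted line is the limit of 2. Car2 lies above the limit in every cell, and Blvrb splits into cells near 0 and cells with high levels. Rhag lies mostly in a low band, with a median of 1.54 in young and 0.75 in old cells and a few higher cells. The remaining genes lie mostly at 0, with few or no cells above the limit.

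Between the ages, none of the 7 genes differed by 1 or more in mean level, and 3 were higher and 4 lower in the old cells. Of all 15014 genes with a read, 3.91% were higher and 4.49% lower by at least 1 in the old cells, 8.4% in either direction. Read against this background, 0 of 7 is not a result about the listed genes. The median difference, old minus young, was -0.03 for the 7 genes and -0.02 for all genes. The shares of expressing cells at the 2 ages had overlapping 95% Clopper-Pearson intervals for each of the 7 genes. These intervals, and those below, cover counting error only, and not the spread between mice or runs, since each age is 1 mouse. An interval of summed reads also treats reads as independent, although the reads carry no molecular identifiers, and so is too narrow where a single cell holds most reads.

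**Figure D2:**
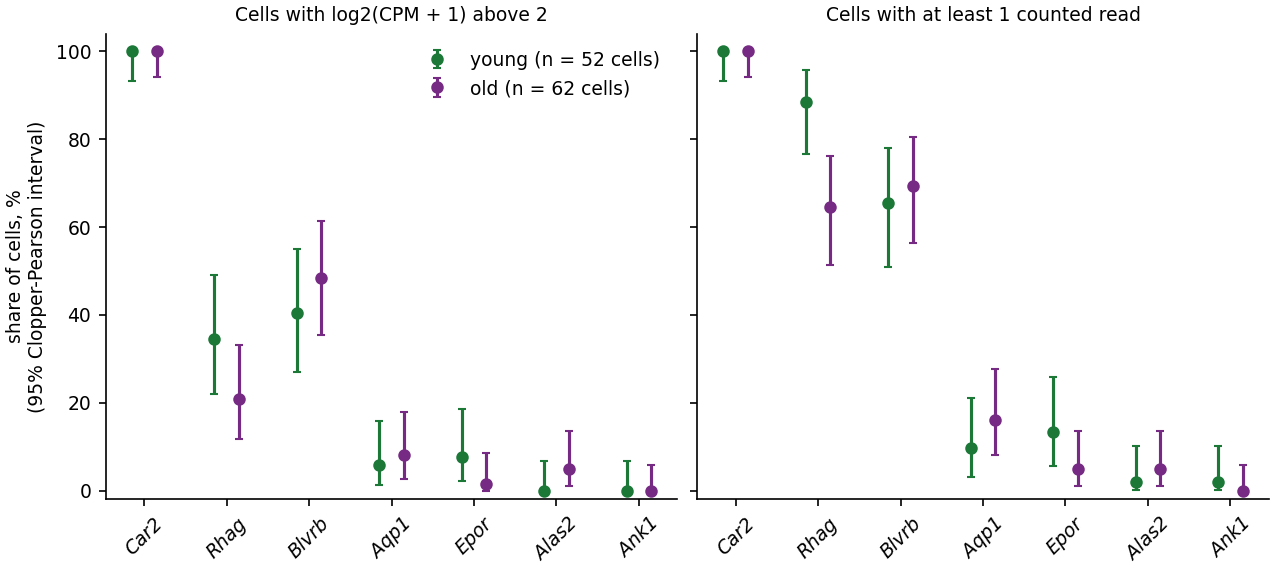
Share of cells (%) with a level above 2 (left) and with at least 1 counted read (right) for each gene, with 95% Clopper-Pearson intervals, in 52 young (green) and 62 old (purple) cells. At the limit of 2 the intervals of the ages overlap for every gene. At the limit of 1 read Rhag stands at 88.5% (76.6 to 95.6) and 64.5% (51.3 to 76.3), and these intervals do not overlap.

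Car2 (chr3:14886269-14900770, plus strand, GRCm38) had levels from 4.20 to 13.20 in the young cells with a median of 11.41, and from 7.85 to 12.95 in the old cells with a median of 11.05. The ranges overlapped over most of their length. The mean level was 11.08 ± 1.58 (SD, n = 52 cells) in young cells and 10.81 ± 1.14 (SD, n = 62 cells) in old cells, a difference of -0.26. In the median young cell 0.271% of all counted reads were Car2 reads, and in the median old cell 0.212%. The highest share was 0.94% in a young and 0.794% in an old cell. The counts behind these levels were large, 67 to 49126 reads per young cell and 161 to 29247 per old cell.

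The low end of the Car2 range was made of few cells. A level below 9 was seen in 4 young and 5 old cells, and 12 or more in 12 young and 10 old cells. The lowest cell was young B3, with 67 Car2 reads of 3862072 counted reads (level 4.20), and the next was young F2, with 144 of 1955926 (level 6.22). Neither was shallow. Both had no Vwf read, while Hlf stood at 10.05 and 10.91, Lmo2 at 8.54 and 7.52 and Kit at 7.16 and 6.30. Without these cells, picked after their values were seen, the young mean was 11.31 ± 1.05 (SD, n = 50 cells) and the difference between the ages -0.50.

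The difference in Car2 between the ages changed sign with the cells compared. In cells that expressed none of the cell cycle genes Ccna2, Ccnb1, Cdk1 and Cdc25c, Car2 had a mean level of 10.69 in 25 young and 10.93 in 49 old cells, a difference of 0.25. In cells that expressed at least 1 of them it was 11.44 in 27 young and 10.38 in 13 old cells. Each of these differences was smaller than the SD over cells of the groups compared, which ran from 1.02 to 1.91. The Car2 level had a Spearman correlation with total reads of 0.10 over 52 young and 0.19 over 62 old cells.

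Rhag (chr17:40811099-40844094, plus strand) passed the limit in 18 of 52 young cells (34.6%, with a 95% interval of 21.97 to 49.1) and 13 of 62 old cells (20.97%, 11.7 to 33.2). Its level ran from 0 to 10.80 with a median of 1.54 in the young cells and from 0 to 4.44 with a median of 0.75 in the old cells. The young mean was 1.85 ± 1.93 and the old mean 1.06 ± 1.11 (SD over 52 and 62 cells, as below), a difference of -0.79. Young cell D8 held 6656 of the 8127 young Rhag reads and young A5 another 1109, together 95.5%. No other young cell exceeded 76 reads, and no old cell exceeded 18 of the 176 reads counted in that mouse. The levels of D8, A5 and young C6 (4.62) lay above the highest old cell, and those of the other young cells lay within the old range. Without D8, A5 and young C5 the difference was -0.43, with 339 young reads.

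**Figure D3:**
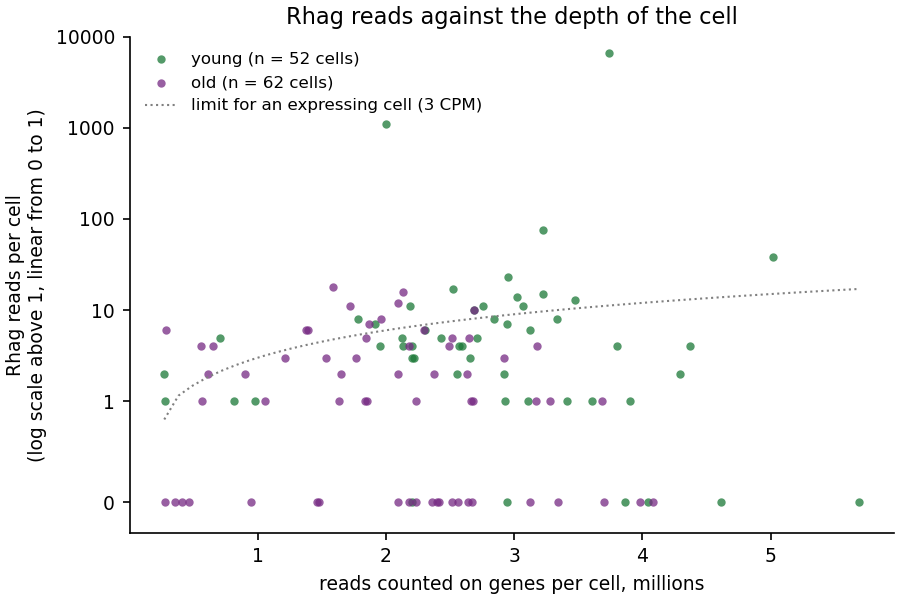
Rhag reads per cell (log scale above 1, linear from 0 to 1) against the reads counted on genes per cell, in units of 1000000 reads, for 52 young (green) and 62 old (purple) cells. The dotted line is the limit for an expressing cell, 3 CPM. Young D8 with 6656 reads and young A5 with 1109 lie far above the other cells, which hold 0 to 76 reads at all depths.

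Outside these cells Rhag was read thinly. In all, a read was present in 46 of 52 young cells (88.5%, 76.6 to 95.6) and 40 of 62 old cells (64.5%, 51.3 to 76.3). These intervals did not overlap, though only just, and they cover counting error only. Of the cells, 33 young and 35 old ones held 1 to 9 reads. Of the expressing calls, 5 young and 8 old ones rested on under 10 reads. The number of Rhag reads had a Spearman correlation with total reads of -0.06 over 52 young and -0.17 over 62 old cells, and for the Rhag level these values were -0.32 and -0.33. The median young cell was deeper than the median old one. With every cell thinned to 250000 reads, which left out 0 cells, a Rhag read remained in 19 young cells (36.5%, 23.6 to 51.04) and 16 old cells (25.8%, 15.5 to 38.5), and the intervals overlapped. At that depth a single read already passes the limit for an expressing cell, at which the intervals overlapped before thinning. The part of depth in the shares of cells with a read was therefore not tested by it. What the scattered reads are was not tested.

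Blvrb (chr7:27447978-27465981, plus strand) was the most widely expressed gene after Car2, in 21 of 52 young cells (40.4%, 27.01 to 54.9) and 30 of 62 old cells (48.4%, 35.5 to 61.4). Its level ran from 0 to 8.84 with a median of 0.48 in the young cells and from 0 to 10.13 with a median of 1.79 in the old cells. The cells fell into those with few or no reads and those with many, and the ages overlapped in both. In the expressing cells alone the median level was 7.17 for the young mouse and 7.12 for the old. At least 100 Blvrb reads were counted in 14 young and 22 old cells. The young mean was 2.66 ± 3.26 and the old mean 3.44 ± 3.41, a difference of 0.78. This difference was close to the limit of 1 and passed it with a pseudocount of 0.1 CPM (1.08) and in the cells without cell cycle expression (1.04).

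The Blvrb reads were spread over many cells. The highest young cell, F8, held 1341 of 10011 reads (13.4%), and the highest old cell, E5, held 4580 of 13958 (32.8%). Blvrb was compared with Vwf, the platelet gene behind the reporter. In the young mouse Blvrb was expressed in 14 of 30 cells that expressed Vwf (46.7%, 28.3 to 65.7) and 7 of 22 that did not (31.8%, 13.9 to 54.9). In the old mouse it was expressed in 14 of 37 cells with Vwf (37.8%, 22.5 to 55.2) and 16 of 25 without it (64%, 42.5 to 82.03). The order was opposite in the 2 mice and the intervals overlapped in each, so no difference by Vwf was shown.

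Aqp1 (chr6:55336299-55348555, plus strand) was expressed in 3 of 52 young cells (5.77%, 1.21 to 15.9) and 5 of 62 old cells (8.06%, 2.67 to 17.8). The median level was 0 at both ages, the highest 8.92 in a young and 5.90 in an old cell, and the mean 0.33 ± 1.39 and 0.38 ± 1.04, a difference of 0.05 that was below 0 in 3 of the other settings tried, poscounts scaling among them. Young cell C11 held 1422 of the 1490 young Aqp1 reads. In the old mouse 92 reads were spread over 10 cells, the highest being A10 with 33. Young C11 was also the cell with 1437 of the 1447 young reads of Kel, the Kell blood group antigen, a membrane gene of the red cell named here after its values were seen.

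Epor (chr9:21958897-21963576, minus strand) was expressed in 4 of 52 young cells (7.69%, 2.14 to 18.5) and 1 of 62 old cells (1.61%, 0.0408 to 8.66). Its median level was 0 at both ages, its highest 10.51 in a young and 4.03 in an old cell, and its mean 0.45 ± 1.77 and 0.08 ± 0.52, a difference of -0.37. Young C5 held 4310 of the 4572 young reads, young A5 242 and young H12 15, and the call in young A4 rested on 1 read. In the old mouse B4 held 61 of 63 reads. Without young A5, C5 and D8 the Epor difference was -0.04, with 20 young reads. The 4 young expressing cells also expressed Vwf, and the old one did not, with 2 Vwf reads.

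Alas2 (chrX:150547417-150570622, plus strand) was expressed in 0 of 52 young cells, which allows a share of up to 5.77%, and in 3 of 62 old cells (4.84%, 1.01 to 13.5). A single read was counted in the young mouse, in A10, against 218 in the old mouse, of which E7 held 200, B2 14 and A10 4. The summed CPM was 252-fold higher in the old mouse with a counting interval of 44.8 to 10006.9, and nearly all of it was that of E7. The median level was 0 at both ages and the highest 1.01 in a young and 6.53 in an old cell. The young mean level was 0.02 ± 0.14 and the old mean 0.20 ± 0.97, a difference of 0.18. Alas2 is X-linked, Xist differed between the mice as given above, and its part in these values was not tested. Alas2 exons overlap those of Apex2 on the opposite strand, which the table also holds, and since strand use in the counting is not given, reads in the shared stretch cannot be assigned. The 3 old cells all expressed Blvrb, at levels of 7.68, 6.54 and 7.98, and none of them expressed Vwf.

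Ank1 (chr8:22974836-23150501, plus strand) was the least read of the genes. In young F8, 6 reads were counted (level 1.60), and 0 in every other cell used. A share of 0 expressing cells allows up to 5.77% of the young and 4.84% of the old cells. No fold between the ages is given, and an antisense gene, Gm15816, overlaps its exons.

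The cells left out by the limits of the study are given apart. All 9 young and 12 old of them expressed Car2, at median levels of 11.65 and 9.52. A young cell among them held 4962 Blvrb reads and an old cell held 416 Aqp1 reads, more than any old cell used. Rhag was expressed in 1 of the 9 and 1 of the 12, and Epor, Alas2 and Ank1 in none.

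Leaving Car2 aside, most cells expressed 0 or 1 of the 6 other genes. In the young mouse 16 cells expressed none, 28 expressed 1, 7 expressed 2 and 1 expressed 4, and in the old mouse the counts were 26, 25, 7 and 1, with 3 more cells expressing 3. At least 1 of the 6 was expressed in 36 of 52 young cells (69.2%, 54.9 to 81.3) and 36 of 62 old cells (58.1%, 44.8 to 70.5), and these intervals overlapped. The levels of pairs of genes were weakly related over the cells of an age, with a highest Spearman correlation of 0.30, between Aqp1 and Epor in 62 old cells, a pair expressed together in 1 cell. In the old mouse Aqp1 was expressed in 3 of the 13 cells with Rhag (23.1%, 5.04 to 53.8) and 2 of the 49 without it (4.08%, 0.498 to 13.98). These counts are small and the intervals overlap.

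**Figure D4:**
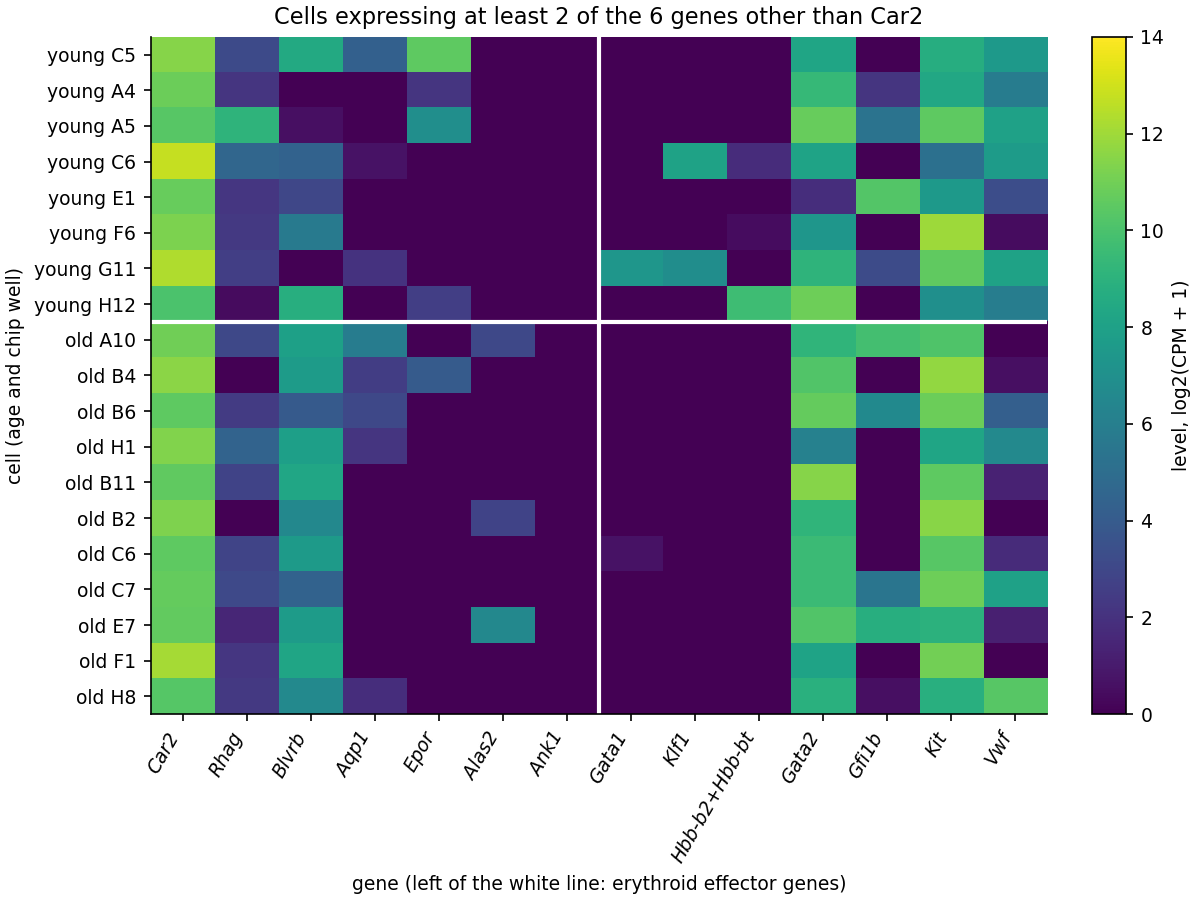
Levels, log2(CPM + 1), of the 7 genes (left of the vertical white line) and of 7 other genes in the cells that expressed at least 2 of the 6 genes other than Car2, 8 young cells above the horizontal white line and 11 old cells below it. Car2 and, in most rows, Gata2 and Kit are bright, while Gata1, Klf1 and the beta globin row are dark except in young C6, G11 and H12.

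The cells with 4 of the 6 genes, 1 in each mouse, held no read of Gata1 or Klf1. Young C5 expressed Epor (4310 reads), Blvrb (1075), Aqp1 (56) and Rhag (23) beside Car2, without a read in the beta globin row. Its level of Vwf was 7.53. Old A10 expressed Blvrb (141 reads), Aqp1 (33), Rhag (4) and Alas2 (4) in 561883 counted reads, also without a read in the globin rows analysed. Its level of Gfi1b, a repressor used in both red cell and platelet formation, was 9.83. The further old cells B4, B6 and H1 expressed 3 of the genes each, and in the shallow cell H1 (289282 counted reads) the Aqp1 call rested on 1 read.

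Klf1 was expressed in 2 young cells and had no read in the old mouse, and both cells expressed 2 of the 6 genes. Young C6 had 872 Klf1 reads beside 76 of Rhag and 66 of Blvrb, at levels of 4.62 and 4.42. Young G11 had 252 Klf1 and 357 Gata1 reads and expressed 4 of the 4 cell cycle genes, beside 11 reads of Rhag and 7 of Aqp1. Their Car2 levels, 12.79 and 12.33, were in the upper part of the young range. Gata1 was expressed in 2 young and 3 old cells.

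Reads of beta globin were found mostly in the young mouse. The joined row of Hbb-b2 and Hbb-bt, adult beta globins, had a read in 18 young and 1 old cells and was expressed in 9 and 1, with 5591 and 43 reads and a difference of -1.22. Young H12 held 2322 of them, with 1279 Blvrb and 15 Epor reads and no Gata1 or Klf1 read. Hba-a1, an adult alpha globin, had 0 reads in every cell used. The further adult globins Hba-a2, Hbb-b1 and Hbb-bs were not analysed here. A missing globin read therefore refers only to the rows analysed and does not show that a cell lacked globin. In the young mouse Blvrb was expressed in 4 of the 9 cells with the beta globin row (44.4%, 13.7 to 78.8) and 17 of the 43 without it (39.5%, 25.0 to 55.6), and Rhag in 4 of 9 (44.4%) and 14 of 43 (32.6%, 19.1 to 48.5). The intervals overlapped for both genes. Slc4a1, a defining membrane protein of the red cell, was not analysed here.

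The cells with high Rhag differed from each other. Young D8 (6656 Rhag reads) also had the iron genes Steap3 at a level of 8.92 and Tfrc, the transferrin receptor, at 7.71, the Kell partner Xk at 7.27 and Itga2b, a platelet integrin subunit, at 8.85, with no Vwf read. These were named after their values were seen. Young A5 (1109 Rhag reads) had Tfrc at 6.30 and Vwf at 8.01, but no Steap3 or Itga2b read. Neither had a Gata1 or Klf1 read or a read in the globin rows analysed, and their Blvrb counts were 1 each.

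The genes around the effectors were described from fixed lists. Of all genes with a read, 3.91% were higher and 4.49% lower by at least 1 in the old cells. Beside these shares, a single gene passing in a list this short is not a result about the list. Of 19 genes of haem synthesis and iron with a read, 1 was higher and 1 lower by at least 1 in the old cells, with a median difference of -0.17 against -0.02 for all genes. The lower one was Slc25a39, a mitochondrial carrier, expressed in 24 young and 9 old cells (difference -1.68). Alad, the enzyme after the Alas2 step, had a difference of -0.76, and Ftl1, a ferritin chain expressed in every cell, 0.52. Alas1, the general counterpart of Alas2, was expressed in 8 young and 6 old cells.

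Of 14 red cell membrane and skeleton genes, 1 was higher and 0 lower by at least 1, with a median difference of -0.16. Here and for the transcription factors below, the shares over all genes were 3.91% higher and 4.49% lower. Single genes passing are again not a result about a list. The higher one was Slc14a1, the urea transporter of the Kidd blood group, in 16 young and 30 old cells (difference 1.83). Xk (-0.89), the nucleoside transporter Slc29a1 (-0.60) and Cd47 (-0.58) stayed within 1. Rhd, a partner of Rhag in the Rh complex, had 902 reads in 1 old cell and 0 in the young mouse. Of 11 erythroid transcription factors, 1 was higher and 0 lower, with a median of 0.03. It was Gata2, expressed in 45 young and 62 old cells, with a mean level of 7.11 and 9.49 (difference 2.39). Gfi1b (0.44), Tal1 (-0.33) and Nfe2 (0.32) stayed within 1, as did Gata1 (0.03) and Klf1 (-0.31).

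Of 11 genes that carry or damp the signal of Epor, 0 were higher and 1 lower, with a median of 0.14. The shares over all genes were 3.91% and 4.49%, so this count is not a result about the list. The lower one was Socs2, a suppressor of cytokine signalling, in 18 young and 6 old cells (-1.70). Stat5b (0.82), Socs3 (0.56) and Stat5a (-0.51) stayed within 1, and Jak2, the kinase bound to Epor, was expressed in 24 young and 33 old cells (difference 0.01). For 23 relatives of the listed genes the median difference was 0.02. Of the other carbonic anhydrases, Car5b had a mean level of 5.24 in young and 4.72 in old cells, and Car13 of 0.49 and 0.78. Blvra, the other biliverdin reductase, was expressed in 14 young and 14 old cells.

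Markers of other lineages were counted in the same way, beside 3.91% of all genes higher and 4.49% lower by at least 1 in the old cells. Of 10 platelet and megakaryocyte genes, 5 were higher by at least 1 in the old cells and 0 lower, with a median of 0.99. These included Sdpr (5.43), Selp (4.47), Itgb3 (2.83) and Clu (2.69), while Vwf (0.85) and Itga2b (-0.05) stayed within 1. Their 10 genes, summed per cell, ran from 0.797 to 3540 CPM in the young and 71.3 to 7248 CPM in the old cells. Of 4 cell cycle genes, 4 were lower, at -1.17 to -1.77. The study had named these 4, and Sdpr, Selp, Itgb3 and Clu, for differing with age in these same data. The counts of both lists are therefore not independent of that choice and add no support. Of 8 stem cell genes, Ly6a was higher (1.55) and Cd34 lower (-1.24), with Mecom (-0.998) and Kit (0.93) just inside the limit. Emcn was the 1 of 4 endothelial genes to pass (-1.59), with Pecam1 at 0.31, and Prtn3 the 1 of 6 granulocyte and macrophage genes (2.49), with Lyz2 at -0.56. None of 3 B and T cell genes (Cd79b 0.15, Lck -0.59) and none of 2 osteoclast genes passed it. The part of these lists in the values of the effector genes was not tested.

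Across the 114 cells, no gene followed Car2 or Blvrb closely. Over the 6939 genes that passed the limit in 20% or more of them, the highest Spearman correlations with Car2 were those of Snrpc (0.33), Nup205 (0.30) and Psmc3 (0.30), and with Blvrb those of Rab18 (0.34), P4hb (0.33) and Ikzf5 (0.33). For Rhag they were Trmt10a (0.52), Abcd4 (0.51) and Camk4 (0.49). These 3 genes were expressed in 49 to 52 young and 53 to 62 old cells. Over the 114 cells their levels fell with total reads, with Spearman correlations of -0.31, -0.40 and -0.38. The Rhag level fell less over the same cells, at -0.22. The cells share a mouse and a run within each age and differ in depth, so these values are descriptions.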

How the data were processed

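Single-cell cDNA was made on the C1 system. The authors imaged the capture sites for single cells, mapped 51 bp reads to mm10 with TopHat2 (2.0.10 in the submitters' processing notes), keeping 1 alignment per read, and deposited raw read counts per RefSeq gene and cell, without normalization or molecular identifiers. Strand use in counting is not given in the sources used here. No doublet caller was run, and 0 pairs of cells had identical columns. CPM was taken over each cell's counted reads, a level is log2(CPM + 1), and a difference is the mean level in old minus that in young cells. Cells passed at 500000 mapped reads or more, at most 10% mitochondrial reads and at least 3000 genes, the limits of the study (52 of 61 young and 62 of 74 old). A cell expressed a gene above a level of 2 and a gene was called at a difference of 1 or more. Cells of 1 mouse per age allow no test between ages. Shares, those of 0 included, have 95% exact Clopper-Pearson intervals, and ratios of summed counts have exact intervals.

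The members and lists were chosen with earlier results of these data known. The genes named from each list were the up to 4 with the largest absolute difference among those expressed in at least 10% of the cells, together with Gata1, Klf1, Vwf, Itga2b and the globins, and for Car2, Rhag and Blvrb the 3 genes with the highest Spearman correlation. Some genes that this rule names are not reported here. Any other gene was named after its values were seen. Gene positions and promoter windows come from RefSeq on GRCm38, exon lengths and overlaps from GENCODE M21. The work used Python 3.11.15, pandas 2.3.3, scipy 1.17.1, edgeR 4.0.16 (TMMwsp factors) and DESeq2 1.42.0 (poscounts size factors) in R 4.3.3. In simulated cells with 15181 genes, 200 genes were changed 4-fold and 100% of them came out with the sign they were given. Of the unchanged genes, 96.8% stayed within 1. The changed genes were drawn above a minimum mean CPM, which Alas2 and Ank1 do not reach. All genes had the same spread setting, so the simulation does not cover genes whose reads sit in single cells. Alternatives covered the cells used, the pseudocount, the normalization, the limit for expression, thinning to 250000 reads and summed counts. Dropping young A5, C5 and D8, or young B3 and F2, was added after the data were seen.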

Additional observations from a re-analysis of the deposited data

How the results depend on the processing

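Of 70 alternative values for the differences of the 7 genes, 65 lay within 1.5-fold of the value in the report. For Car2, Epor, Alas2, Aqp1 and Ank1 that margin is wider than the difference itself. For these genes the count therefore does not show that the sign or size held. With a pseudocount of 0.1 CPM the Rhag difference was -1.50, and 1232 genes were higher and 1632 lower by at least 1, against 587 and 674. The log2 ratio of summed counts was -5.32 for Rhag, -5.97 for Epor, -3.81 for Aqp1 and 7.98 for Alas2, where single cells hold most reads. It has no value for Ank1, which had no old read. At a limit of 1 counted read, 96.2% of young and 90.3% of old cells expressed at least 1 gene other than Car2. The differences ran from 0.47 to 1.08 for Blvrb and from -0.50 to 0.25 for Car2, which was above 0 only in cells without cell cycle expression. The Aqp1 difference, 0.05, was below 0 in 3 settings, and that of Ank1 was 0 without young F8. Each of the 35 alternative share differences moved within its counting interval. No paired analysis was possible because each age is 1 mouse and the cells carry no shared replicate numbers, and no replicate could be left out for the same reason. Of the Rhag calls, 5 young and 8 old ones rest on 1 to 9 reads, which limits the precision of its low levels.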
